A study of Caenorhabditis elegans with 2 samples.

Results

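The nematode insulin pathway was examined through 9 of its genes, daf-2, age-1, aap-1, ist-1, pdk-1, akt-1, akt-2, sgk-1 and daf-18, for where the zinc finger transcription factor PQM-1 was detected around them by chromatin immunoprecipitation and sequencing. The genes were listed by their known function, not by any measured value, though with earlier results of these data known. They are 9 of 19973 protein-coding genes. The chromatin came from whole Caenorhabditis elegans at the L3 larval stage, with both sexes together. The strain, OP201, carries the transgene wgIs201, which supplies eGFP-tagged PQM-1, in an unc-119(tm4063) background. The labels put 2 biological replicates in 1 group, with no second condition, so no test between conditions could be made and the values are given as descriptions. Nothing in the labels says which promoter drives the tagged protein, and the antibody field names pqm-1 while the description names the eGFP fusion. In chromatin from whole animals, strong occupancy in few cells and weak occupancy in many cells cannot be told apart.

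Insulin-like peptides signal through DAF-2, the only insulin and IGF receptor of the worm, to the phosphoinositide 3-kinase AGE-1 and its adaptor subunit AAP-1. The lipid product of AGE-1 is removed by DAF-18, a lipid phosphatase, and otherwise activates the kinases PDK-1, AKT-1 and AKT-2, which phosphorylate the transcription factor DAF-16 and hold it in the cytoplasm. SGK-1 is a related kinase, and IST-1 is the counterpart of the insulin receptor substrate of mammals. PQM-1 is known as a factor that enters intestinal nuclei when DAF-16 is outside them, and its recognition site TGATAAG is the DAF-16-associated element. The pathway thus lies above both factors, which are known to move in opposite directions.

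Peaks were read from 4 lists on the ce11 build. The optimal list holds 5560 peaks, which are exactly the strongest of a pooled list of 30000 called on both replicates together, and the weakest of them has a signal value of 23.8. The signal value is a score set by the authors on a scale that none of the sources states, so it is compared only within a list. The relaxed lists of replicate 1 and replicate 2 hold 26022 and 30000 peaks. Each gene was searched from 5 kb upstream to 2 kb downstream, and a summit was counted at a transcript start when it fell between 1000 bp before and 250 bp after any annotated transcript start of that gene. The lists give no read counts, so depth is unknown. The labels name a possible control experiment, which was not used here, and how much signal these places would give without PQM-1 was not tested.

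The kinases at the lower end of the pathway, akt-1, akt-2 and sgk-1, held optimal summits at their transcript starts, and the other 6 genes held none there. That is 3 of 9 genes, where 17.7% of all protein-coding genes met the same rule. Across the whole windows, 13 optimal summits fell in 7 of the 9 genes, where 40.2% of all genes had at least 1. The windows of daf-2 and age-1 held none. Of the 13 summits, 7 were nearest to a start of the pathway gene itself and 6 were nearer to the start of another protein-coding gene. The signal values ran from 24.4 to 93.5 with a median of 45.1, beside a median of 43.6 over all optimal peaks, and 7 of the 13 lay above that median. Outside the pathway gene lay 11 summits, 2 lay in an intron of it and 0 in an exon. The same counts over all optimal peaks are not given here, for these places or for the nearest starts. Whether the 13 differ in them from peaks in general was not tested.

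**Figure D1:**
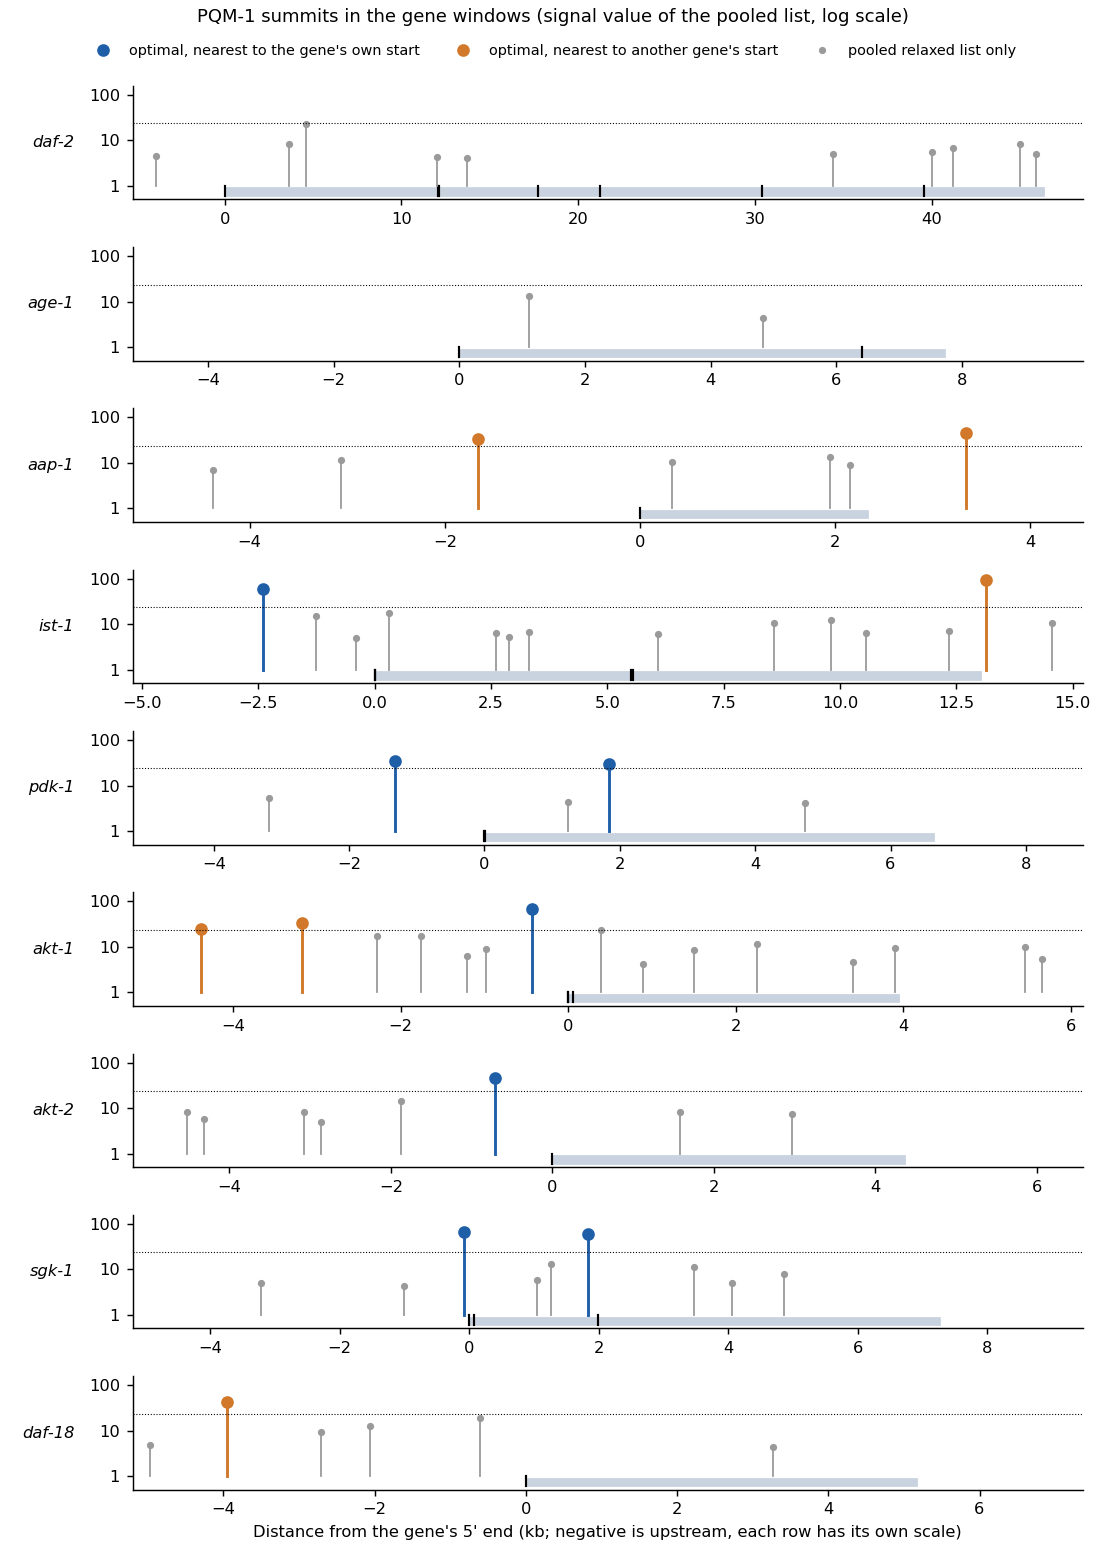
Each row is 1 gene window, with distance from the gene's 5' end in kb on the horizontal axis and the pooled signal value on a log vertical axis. The pale bar is the gene, black ticks are transcript starts, the dotted line marks the 23.8 at which the optimal list ends, blue and orange points are optimal summits nearest to the gene's own start or to another gene's start, and grey points are in the pooled list only. Blue points near the start are seen for akt-1, akt-2 and sgk-1, and the windows of daf-2 and age-1 hold grey points only.

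The gene sgk-1 (W10G6.2, WBGene00004789), which encodes the serum- and glucocorticoid-inducible kinase homologue, held 2 optimal summits, and both were at its own starts. It lies on the minus strand of chromosome X, from 16254842 to 16262122, and its transcripts begin at 3 places, 2 of them 71 bp apart and the third 1994 bp into the gene. The stronger summit was 85 bp upstream of the first start (peak at X, 16262037 to 16262376), with a pooled signal of 67.0, rank 1352. Its signal was 47.6 in replicate 1 (rank 1490) and 14.3 in replicate 2 (rank 2260). The other summit was 166 bp upstream of the internal start of transcript W10G6.2a.2 and lay in an intron of the longer transcripts (peak at X, 16260124 to 16260463), with a pooled signal of 60.8, rank 1634. Its signal was 44.9 in replicate 1 (rank 1648) and 10.05 in replicate 2 (rank 3866). Both starts thus carried a summit, and the upstream one was the stronger in every list. The nearest start of another protein-coding gene, mua-6, was 3479 bp from the first and 5392 bp from the second.

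The sequences at these summits both hold the PQM-1 site. They are read on the strand of sgk-1 from the WBcel235 genome, which is the assembly named ce11. The upstream one covers chrX:16262157-16262257 and the internal one chrX:16260244-16260344, each 50 bp either side of the summit, with TGATAAG in capitals.
sgk-1 upstream start: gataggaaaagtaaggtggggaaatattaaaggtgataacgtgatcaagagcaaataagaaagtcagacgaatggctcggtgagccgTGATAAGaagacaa
sgk-1 internal start: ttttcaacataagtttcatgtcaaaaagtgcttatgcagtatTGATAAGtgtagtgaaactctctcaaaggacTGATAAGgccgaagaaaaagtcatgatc
The upstream summit had 1 match, with its middle base 40 bp downstream of the summit. The internal summit had 2, with middle bases 5 bp upstream and 26 bp downstream of the summit. Of the 5560 optimal summits, 167 had 2 or more matches within 50 bp.

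For akt-1 (C12D8.10, WBGene00000102), which encodes one of the Akt/PKB kinases that phosphorylate DAF-16, 3 optimal summits lay in the window, all upstream of the gene. The gene runs from 10248905 to 10252845 on the plus strand of chromosome V, with 3 starts within 51 bp. The strongest summit was 432 bp upstream of the first start (peak at V, 10248303 to 10248642), with a pooled signal of 69.0, rank 1272. Its signal was 61.5 in replicate 1 (rank 866) and 12.8 in replicate 2 (rank 2675), and the nearest other protein-coding start was 5268 bp away. The other optimal summits lay 3177 bp and 4389 bp upstream, at signals of 34.0 and 24.4, and both were closer to the start of C12D8.9. The weaker of them, rank 5451, is near the end of the optimal list.

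A further akt-1 peak lay just under the optimal list and was unequal between the replicates. Its summit was in an intron 343 bp downstream of the nearest start, with a pooled signal of 23.4, rank 5648. In replicate 1 the overlapping peak had a signal of 3.90, rank 16977, and in replicate 2 it had 15.3, rank 2031. In replicate 2 this was the strongest peak of the akt-1 window, ahead of the upstream peak, whereas in replicate 1 the upstream peak led. Replicate 2 also had a peak 984 bp upstream of akt-1 at a signal of 12.5, rank 2793, for which replicate 1 had no overlapping peak and the pooled list had one of 8.93. Among the 440 pooled peaks ranked 5561 to 6000, 31.8% were among the 5560 strongest of replicate 2 but not of replicate 1. The share the other way round was 35.7%, so a split across rank 5560 was common there. How often the ranks of the replicates lay as far apart as 2031 and 16977 was not counted.

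Both akt-1 sequences are shown on the plus strand. The strong upstream peak has no TGATAAG within 50 bp of its summit and the weaker intronic peak has one. The sequences cover chrV:10248423-10248523 and chrV:10249249-10249349. Capitals mark the core GATAA, read here as TTATC on the other strand, in the upstream sequence, and TGATAAG, read as CTTATCA on the other strand, in the intronic one.
akt-1 upstream: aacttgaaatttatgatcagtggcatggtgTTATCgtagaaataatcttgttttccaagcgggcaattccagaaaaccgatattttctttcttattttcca
akt-1 intron: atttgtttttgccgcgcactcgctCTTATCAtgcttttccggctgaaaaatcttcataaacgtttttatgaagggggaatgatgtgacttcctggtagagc
The site in the intron had its middle base 23 bp upstream of the summit.

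The second Akt gene, akt-2 (F28H6.1, WBGene00000103), held 1 optimal summit, 711 bp upstream of its only start. The gene runs from 14147700 to 14152070 on the plus strand of chromosome X, and the peak lay at X, 14146819 to 14147158. Its pooled signal was 45.8 (rank 2570), with 30.0 in replicate 1 (rank 3142) and 15.2 in replicate 2 (rank 2062). The nearest other protein-coding start, that of the homeobox gene ceh-89, was 5043 bp away. No TGATAAG lay within 50 bp of the summit, and the sequence is rich in C and T instead. It is shown with CTCTCTC, the other strand of GAGAGAG, in capitals (plus strand, chrX:14146939-14147039).
akt-2 upstream: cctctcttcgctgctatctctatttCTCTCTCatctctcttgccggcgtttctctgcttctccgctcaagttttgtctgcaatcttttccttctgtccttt
A pooled peak with TGATAAG lay 1875 bp upstream of akt-2, at a signal of 14.1, rank 8478, well outside the optimal list and with no overlapping peak in replicate 2.

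For pdk-1 (H42K12.1, WBGene00003965), the kinase that activates the Akt kinases, 2 optimal summits lay on either side of the start, and neither was close enough to count. The gene runs from 1321344 to 1327986 on the plus strand of chromosome X. The upstream summit was 1317 bp from the start (peak at X, 1319857 to 1320196), with a pooled signal of 34.1 (rank 3850), 25.4 in replicate 1 (rank 3828) and 10.6 in replicate 2 (rank 3588). The other was in an intron, 1827 bp downstream of the nearest start (peak at X, 1323010 to 1323349), with a pooled signal of 30.3 (rank 4432), 18.3 in replicate 1 (rank 5404) and 7.27 in replicate 2 (rank 6469). The nearest other protein-coding starts were 8419 bp and 6767 bp away, so pdk-1 was their nearest gene. The upstream sequence is shown as that of the stronger peak. It had the highest share of G and C of the 13, at 62.4%, where the others ran from 29.7% to 46.5% and the median over all optimal summits was 39.6%. It is printed to the end of a TGATAAG, read as CTTATCA on the other strand and in capitals, that crosses the edge of the 50 bp window (plus strand, chrX:1319977-1320079).
pdk-1 upstream: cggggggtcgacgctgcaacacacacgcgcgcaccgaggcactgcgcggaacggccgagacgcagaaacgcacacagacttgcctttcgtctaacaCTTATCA
The middle base of this site was 49 bp downstream of the pooled summit, so the site was not counted there. It was 35 bp downstream of the replicate 1 summit and 18 bp downstream of the replicate 2 summit, within the window of both. Other peaks lost a counted site at the replicate 2 summit, as given below with the motif counts.

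The substrate gene ist-1 (C54D1.3, WBGene00002163) had the strongest peak of any window, but at the start of another gene. It runs from 7126648 to 7139666 on the plus strand of chromosome X. The peak (X, 7139763 to 7139918) had a pooled signal of 93.5 (rank 608), with 72.3 in replicate 1 (rank 574) and 26.2 in replicate 2 (rank 620), and was the only one of the 13 among the strongest 1000. Its summit lay past the end of ist-1 and 82 bp upstream of clec-86, a C-type lectin gene. The second ist-1 peak was intergenic, 2408 bp upstream of the first start (X, 7124070 to 7124409), with a pooled signal of 60.2 (rank 1653), 45.6 in replicate 1 (rank 1613) and 13.0 in replicate 2 (rank 2639). There ist-1 was the nearest gene, with hen-1, the next, at 7244 bp. The pooled list held 14 peaks in this window, of which 1, at a signal of 5.09, was at a start.
The sequence of the clec-86 peak holds GATAA, in capitals, and not the full TGATAAG, whose nearest match had its middle base 70 bp downstream of the summit (plus strand, chrX:7139743-7139843).
ist-1 window, at clec-86: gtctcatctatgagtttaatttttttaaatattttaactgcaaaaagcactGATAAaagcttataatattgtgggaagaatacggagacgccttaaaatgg

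The phosphatase gene daf-18 (T07A9.6, WBGene00000913) held no optimal summit at its start. It lies from 420011 to 425177 on the minus strand of chromosome IV. The only optimal summit in its window was 3948 bp upstream and lay 8 bp downstream of the start of Y66H1A.5, in its 5' UTR (peak at IV, 428955 to 429294). Its pooled signal was 43.0 (rank 2842), with 24.9 in replicate 1 (rank 3917) and 18.1 in replicate 2 (rank 1530). A pooled peak 608 bp upstream of daf-18 had a signal of 18.6, rank 6803. It was 383 bp upstream of garr-1, so garr-1 was nearer, and it overlapped peaks ranked 9829 in replicate 1 and 5412 in replicate 2. The site at the Y66H1A.5 summit is shown on the minus strand with TGATAAG in capitals (chrIV:429077-429105).
daf-18 window, at Y66H1A.5: agttggacaacTGATAAGggagaaagaga

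The receptor gene daf-2 (Y55D5A.5, WBGene00000898) had the longest window, at 53.3 kb, and no optimal summit in it. The gene spans 2994514 to 3040846 on the minus strand of chromosome III and has 7 transcripts with 7 different starts. The pooled list held 10 peaks in the window. The strongest was in an intron, 4622 bp downstream of the first start, with a signal of 22.6, rank 5820, a little under the end of the optimal list. Replicate 1 had it at a signal of 24.5, rank 4014, and replicate 2 had no peak overlapping it. Of the 440 pooled peaks ranked 5561 to 6000, 19.5% likewise overlapped no peak of replicate 2. The other 9 pooled peaks had signals of 8.40 or less, and 1 of them, at 4.25, was 39 bp upstream of the internal start of Y55D5A.5a.1. Replicate 1 alone had 3 weak peaks at daf-2 starts, with signals of 2.24, 4.79 and 4.61, and replicate 2 had none.

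The absence of an optimal summit was not unusual for so long a window. Of 25 protein-coding genes with a window within 20% of that length, daf-2 among them, 48.0% had at least 1 optimal summit, a comparison added after the daf-2 value was seen. Their mean was 0.880 summits per window, or 0.178 per 10 kb, against 0.554 per 10 kb over the genome. The 9 windows together held 0.813 per 10 kb, where windows of all protein-coding genes held 0.620. Leaving out daf-2, whose window held 0 summits, could only raise the value, which was 1.22 for the other 8. No window was left out of the 0.620, so the 1.22 is not a like comparison with it.
The intronic daf-2 sequence, like that of akt-2, is rich in C and T and holds CTCTCTC, in capitals (minus strand, chrIII:3036174-3036274).
daf-2 intron: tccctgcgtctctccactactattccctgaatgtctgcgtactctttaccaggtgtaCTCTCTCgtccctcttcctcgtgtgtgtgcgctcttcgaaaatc

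**Figure D2:**
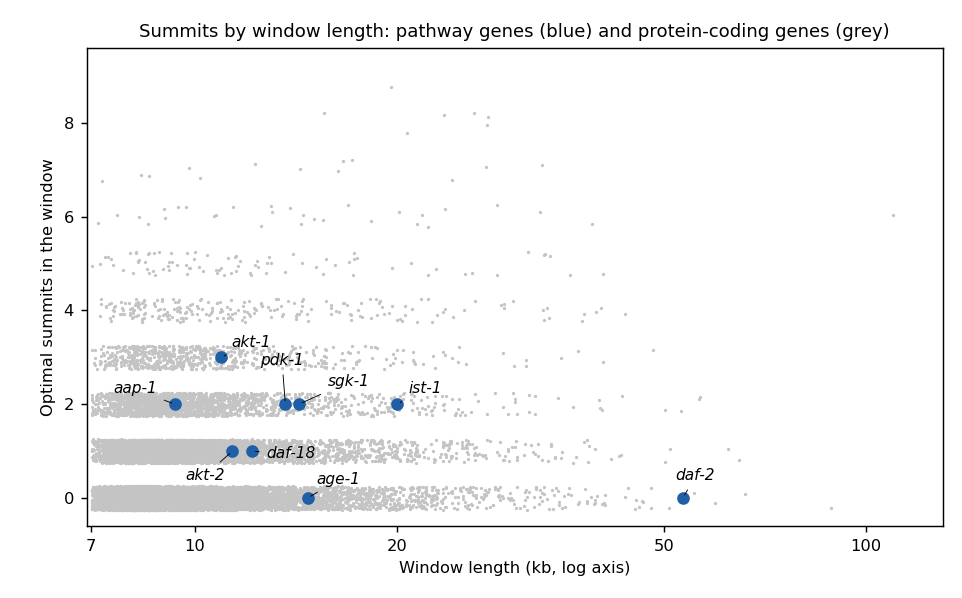
Each point is 1 protein-coding gene, with window length in kb on a log axis and the number of optimal summits in the window, moved slightly up or down so that points can be told apart. The 9 pathway genes are blue and sit at 0 to 3 summits, with daf-2 far to the right at 53.3 kb and 0 summits.

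The catalytic subunit gene age-1 (B0334.8, WBGene00000090) had the fewest peaks of the 9 genes in the pooled list and in each replicate list, and shared a count of 0 with daf-2 in the optimal list. It lies from 11519328 to 11527054 on the minus strand of chromosome II. Its window held 0 optimal and 2 pooled peaks, and 2 and 1 peaks in the lists of replicates 1 and 2. The stronger pooled peak, at a signal of 13.2 and rank 8904, was in a coding exon 1116 bp downstream of the first start, and replicate 2 had no peak there. The other had a signal of 4.27. No peak of the 4 lists lay at a start of age-1.

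The adaptor subunit gene aap-1 (Y110A7A.10, WBGene00000001) had 2 optimal summits in its window, each almost on the start of another gene. It runs from 5107843 to 5110183 on the plus strand of chromosome I. The summit 1656 bp upstream of aap-1 lay 17 bp upstream of use-1 (peak 5106017 to 5106356), with a pooled signal of 33.4 (rank 3931), 17.6 in replicate 1 (rank 5590) and 13.3 in replicate 2 (rank 2526). The summit 3346 bp downstream of the aap-1 start lay 27 bp upstream of Y110A7A.21 (peak 5111019 to 5111358), with a pooled signal of 45.1 (rank 2628), 24.4 in replicate 1 (rank 4021) and 20.8 in replicate 2 (rank 1150). The second of these had TGATAAG with its middle base 7 bp from the summit. No pooled peak was at the start of aap-1 itself by the rule used. The closest was 329 bp downstream in a coding exon at a signal of 10.5, and the overlapping peak of replicate 2, at 221 bp with a signal of 7.57 (rank 6061), did meet the rule.

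**Figure D3:**
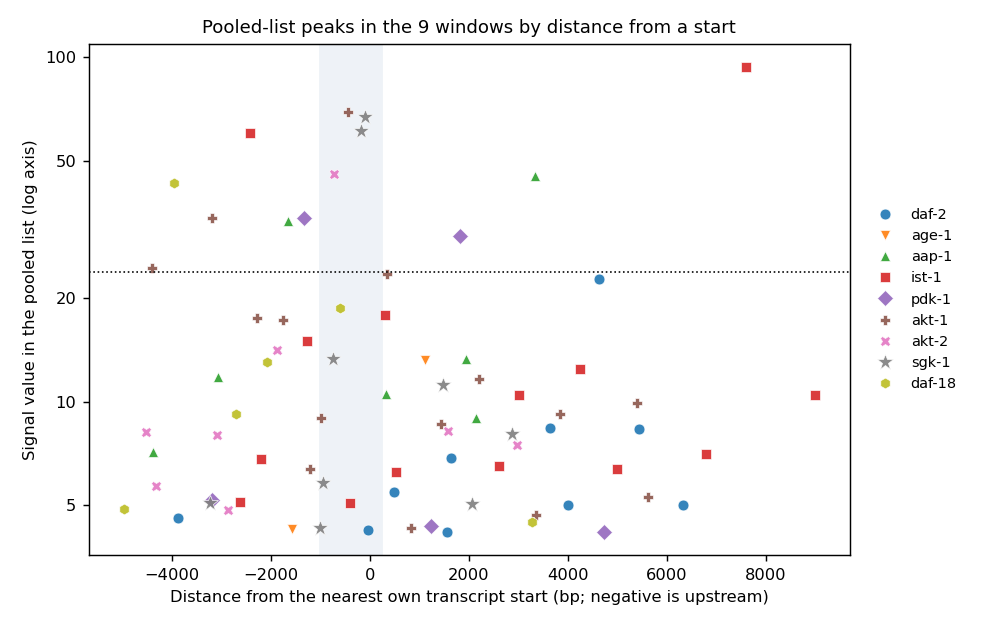
Each point is 1 of the 76 pooled peaks in the 9 windows, with its distance in bp from the nearest own transcript start on the horizontal axis and its pooled signal on a log vertical axis. The shaded band is the start rule and the dotted line the end of the optimal list. Only akt-1, akt-2 and sgk-1 have points above the line within the band.

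The replicates were then compared at these peaks. All 13 optimal peaks overlapped a peak in both replicate lists, as did 93.4% of all optimal peaks. Among each replicate's 5560 strongest, replicate 1 held 12 of the 13, beside 91.3% of all optimal peaks, missing the use-1 peak at rank 5590. Replicate 2 held 12, beside 71.7% of all optimal peaks, missing the intronic pdk-1 peak. The summits of the replicates lay 6 to 121 bp apart with a median of 55 bp, beside a median of 37 bp over all optimal peaks. The peaks of the aap-1 and daf-18 windows and that of akt-2 ranked higher in replicate 2. The stronger peaks of akt-1, sgk-1 and the upstream ist-1 peak ranked higher in replicate 1. In each replicate taken alone, cut to its 5560 strongest peaks, akt-1, akt-2 and sgk-1 had a summit at a start. That was 3 of 9 genes in replicate 1, where 17.9% of all genes had one, and 4 of 9 in replicate 2, where 15.3% had one. The optimal list was made from these same replicates, so the return of the 3 genes is not independent of it. Replicate 2 alone added daf-18, through the peak that is nearer to garr-1, and replicate 1 alone held the intronic daf-2 peak, which is not at a start.

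**Figure D4:**
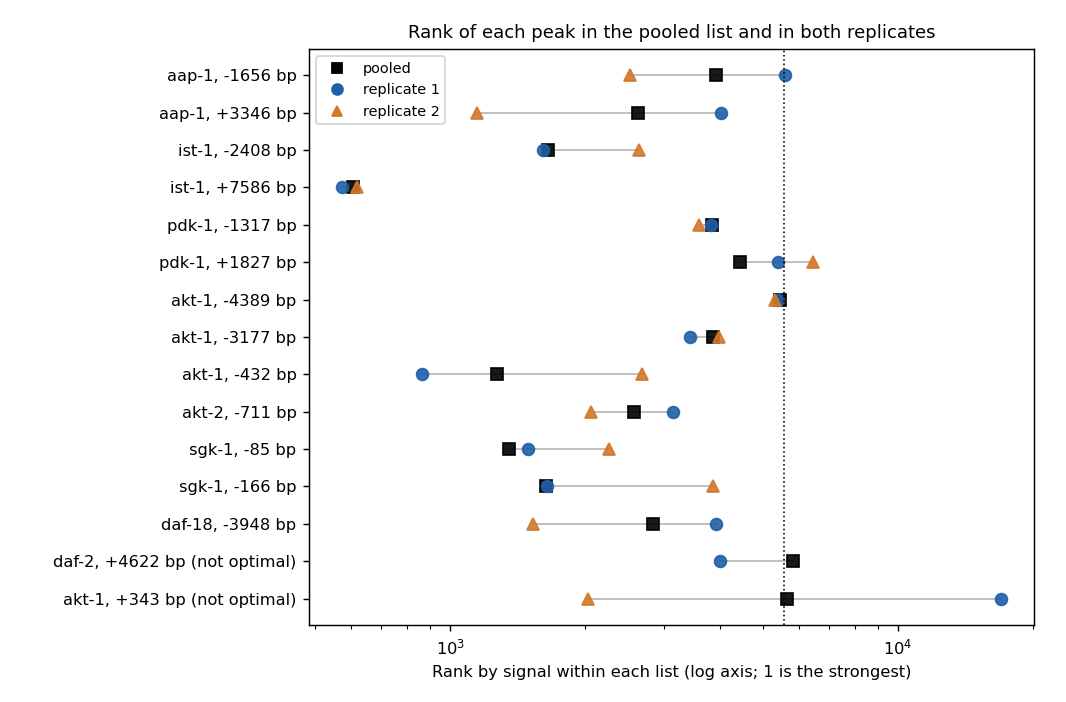
Ranks by signal on a log axis for the 13 optimal peaks and the 2 akt-1 and daf-2 peaks just under the optimal list, in the pooled list (squares), replicate 1 (circles) and replicate 2 (triangles). Labels give the distance from the nearest own start, the dotted line marks rank 5560, and the akt-1 peak at +343 bp spans ranks 2031 to 16977, while the daf-2 peak has no triangle because replicate 2 had no peak there.

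In the relaxed lists the pathway genes had peaks at starts more often than in the optimal list, as genes in general did. A pooled peak was at a start in 6 of the 9 genes, where 48.1% of all genes had one. The pooled list was deposited as peaks and background together, so an entry in it is not by itself a detected peak. The entries at starts of daf-2 and ist-1 had −log10 q values of only 0.0838 and 0.231. The windows held 76 pooled peaks, and the 63 outside the optimal list had a median signal of 7.48. Of those 63, 25 overlapped a peak of both replicate lists, and 3 overlapped a peak of neither.

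Of the 13 optimal summits, 4 had TGATAAG within 50 bp on either strand (30.8%, exact 95% interval 9.09 to 61.4), beside 23.9% of all optimal summits and 2.27% of windows of the same size 500 bp away toward lower coordinates. These were both sgk-1 summits, that at Y66H1A.5 and that at Y110A7A.21. The replicate 1 summits of these peaks had the site within 50 bp as well. At the replicate 2 summits only the upstream sgk-1 peak kept it, and the internal sgk-1, Y66H1A.5 and Y110A7A.21 peaks had none. The summits at the starts of akt-1 and akt-2 had none. GTAAACA, which DAF-16 recognises, lay near 0 of the 13 (exact 95% upper limit 24.7%) and at 3.11% of all optimal summits. AGATAA, another GATA site, was at 1, the weakest akt-1 summit, and at 11.9% of all. A match is a run of letters and not a measured contact. Within 100 bp, TGATAAG was at 6 of the 13, the upstream pdk-1 summit and the clec-86 summit being added, beside 33.3% of all optimal summits. The intervals cover counting error only.

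The chromosome the genes lie on was also recorded. The X chromosome carries 4 of the 9 genes, beside 2731 of all 19973 protein-coding genes. It holds 7 of the 13 summits, beside 21.4% of all optimal peaks, but that count depends on how many of the listed genes lie on X. A summit at a start was seen for 2 of the 4 on X (akt-2 and sgk-1), where 19.8% of all genes on X had one, and for 1 of the other 5 (akt-1), where 17.4% of all genes off X had one.

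Other genes tied to the pathway were looked up by the same start rule. Of 25 regulators and outputs, 6 had an optimal summit at a start (24.0%), beside the 17.7% of all genes. They were the stress response factor skn-1 (signal 63.4, rank 1505), the pathway cofactor smk-1 (68.1, rank 1310), the 14-3-3 genes ftt-2 (49.1, rank 2311) and par-5 (43.3, rank 2806), the phosphatase subunit pptr-1 (44.0, rank 2737), which acts on AKT-1, and math-33 (27.5, rank 4866), an enzyme that removes ubiquitin from DAF-16. In 3 of the 6, par-5, math-33 and smk-1, a start of another gene was closer to the summit. Among the summits listed here, that of pptr-1, 89 bp upstream of the start, was the only one with TGATAAG within 50 bp. For skn-1, which had 2 optimal summits at its starts, values are given for the listed summit only. The remaining 19 had none at a start. An optimal summit lay in the window of 12 of the 25, where 40.2% of all genes had one. A pooled summit lay at a start of 18 of the 25, where 48.1% of all genes had one. Among the 19, daf-16 had 5 optimal summits in its window and 4 pooled summits at its starts. Its window was long, at 33.2 kb, where the median over all protein-coding genes was 9.03 kb. The gene hsf-1 had 1 optimal summit in its window and none at a start in the pooled list, and pqm-1 had 0 of either. Also without an optimal summit at a start were the genes known from enhancers of an akt-1 mutant, eak-3, eak-4, sdf-9, eak-6, eak-7 and hsd-1.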

How the data were processed

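Both replicates belong to 1 group, and their fragments spanned 150 to 350 bp according to the labels. The authors deposited, on ce11, an optimal list filtered by irreproducible discovery rate, a pooled relaxed list and 1 relaxed list for each replicate. Per the deposited notes, the relaxed lists derive from the alignments and 1 further file that the notes do not describe. Each peak has a signal value, a score whose scale is not stated, a −log10 q value and a summit position, as deposited. No source used here names the aligner, the caller or the threshold. The lists on ce10 were not used, and no coordinates were converted.

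Summits were placed on the WBcel235 genome and the Ensembl 115 annotation, which is the same assembly as ce11. All 9 genes and the 25 others were found by name. An overlap of 1 bp or more made peaks shared. When several peaks of a replicate overlapped a peak, the strongest was taken. Distances are negative upstream. "Nearest gene" refers to protein-coding genes. Motif counts took whole matches on both strands, and TGATAAG and AGATAA each contain GATAA. Intervals are exact binomial (Clopper-Pearson) at 95%. Counts of genes or peaks that met a rule are read against the share of all protein-coding genes or optimal peaks where one is given, and no test was made because there is 1 group.

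The genes, the list of 25 and the alternatives were chosen with earlier results of these data known. The text names all 9 genes with each optimal summit, any other gene closer to a summit, and those of the 25 with a summit at a start. Sequences are those of the strongest optimal peak of each gene (aap-1 excepted), plus the internal sgk-1 peak and the akt-1 and daf-2 peaks just under the optimal list, which were picked after their values were seen. The placement and motif code was tested on made-up peaks with known answers. The software was numpy 2.4.6, scipy 1.17.1 and matplotlib 3.10.9 under Python 3.11.15.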

Additional observations from a re-analysis of the deposited data

How the results depend on the processing

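The count of 3 genes with an optimal summit at a start was 3 in the stronger 50% of the peaks, with the gene's 5' end alone and with own starts that are also the nearest, 2 with the narrower start rule (500 bp upstream to 100 bp downstream), which left out akt-2, 5 with the wider one (2000 and 500 bp), which took in pdk-1 and aap-1, and 0 in the strongest 1000 peaks. The count of genes with a summit in the window fell from 7 to 1 in the strongest 1000. A shorter list or a narrower rule can only lose calls. The share of all genes under these changed rules and lists is not given here, so whether the pathway genes moved differently from genes in general was not tested. The 13 summits became 8 in a narrower window (2 kb upstream, 500 bp downstream), 7 in the stronger 50%, 1 in the strongest 1000, and 7 where only those nearest to an own start count, an alternative chosen after seeing the data. The count found in both replicates fell alike, to 8, 7 and 1, by construction, since fewer summits entered. It was 12 with 50% reciprocal overlap and 11 with summits within 100 bp. TGATAAG, at 4 summits, was at 2 in the narrower window, 0 in the strongest 1000 peaks, 2 within 25 bp and 6 within 100 bp. GATAA in its place was at 8 and GAGAGAG at 2, both chosen after seeing the data. Leaving out 1 replicate gave 13 to 18 summits, 3 to 4 genes with a summit at a start, 7 to 8 with a summit in the window and 3 to 5 summits with TGATAAG. The 18 come from replicate 2 alone. No paired analysis was possible because the design has 1 group and no test. Depth is unknown, so a gene without a summit may have one below what these lists could show.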

Other observations

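Sites chosen after the data were seen give the following values. GATAA, the core of several GATA sites, lay within 50 bp of 8 of the 13 summits, beside 55.4% of all optimal summits and 23.1% of windows 500 bp away. GAGAGAG lay at 2 of the 13, the akt-2 summit and the internal sgk-1 summit, beside 8.29% of all optimal summits and 1.38% of the windows 500 bp away. The median share of G and C within 50 bp of the summits was 38.6% for the 13 and 39.6% over all optimal summits.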
